A study of Canis lupus familiaris with 12 samples.

Results

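The let-7 family was examined in small RNA libraries from the right atrium of dogs. The members were taken by name: every mature miRNA of the count table whose name begins with cfa-let-7 was included once, where cfa is the prefix for dog (Canis familiaris). This gave 6 members (let-7a, let-7b, let-7c, let-7e, let-7f and let-7g) of 350 mature miRNA names. The pacing group consisted of 3 mongrel dogs whose right atrium was driven by a pacemaker for 14 days at 500 bpm and 5 V, a model of atrial fibrillation. The control group consisted of 3 mongrel dogs that underwent the same operation and carried a pacemaker that did not stimulate. The dogs were of either sex and their ages were not given in the sources used here. Whole atrial tissue was sequenced, so fewer cells of a type and less RNA per cell cannot be told apart. The pacing libraries are named P1, P2 and P3 and the control libraries C1, C2 and C4 in the tables. The sample labels number the libraries differently and give the name C4 to a paced animal, so results are also given without C4, or with C4 counted as pacing, where that changed them.

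miRNAs are short RNAs that guide Argonaute proteins to complementary sites in mRNAs, which are then degraded or translated less. The target is found mainly through the seed, a short stretch near the 5′ end of the miRNA that all let-7 members share. let-7 was discovered in the worm Caenorhabditis elegans as a switch of developmental timing, and in mammals its mature forms accumulate as cells differentiate. The proteins LIN28A and LIN28B bind let-7 precursors and block their maturation, and let-7 in turn represses LIN28 mRNA, cell cycle genes and growth factor signalling genes.

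The mature sequences in the count table are shown because the members differ so little that their reads can be hard to tell apart. Each is written 5′ to 3′ with the seed (bases 2 to 8) in capitals, and miR-98, which carries the same seed under another name, is added.
let-7a: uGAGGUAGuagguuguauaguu
let-7b: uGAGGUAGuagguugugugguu
let-7c: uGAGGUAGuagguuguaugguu
let-7e: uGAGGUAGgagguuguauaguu
let-7f: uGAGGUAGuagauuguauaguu
let-7g: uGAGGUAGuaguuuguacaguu
miR-98: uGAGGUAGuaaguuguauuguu
All 7 sequences hold the seed GAGGUAG, and no other name in the table did. Positions were counted from 1 at the 5′ end and the base of let-7a is written first. let-7c differs from let-7a by A19G, let-7e by U9G and let-7f by G12A, a single base each. let-7b differs by A17G and A19G, let-7g by G12U and U18C, and miR-98 by G11A and A19U. Among the members a pair differed by 1 to 4 bases, and let-7b and let-7c were also 1 base apart. The aligner and the mismatches allowed for the small RNA reads were not given in the sources used here, so reads of members that differ by 1 base may have been split between them.

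The libraries held 829553 to 1719426 miRNA tags in the pacing group and 1051774 to 1815172 in the control group. The heart muscle miRNA miR-1 was abundant in every library (33152 to 133102 CPM in pacing, 51494 to 118796 CPM in control, where CPM is the number of tags per 1000000 miRNA tags of the library). C4 and C2 stood apart from the other libraries. C4 listed the myosin-encoded miR-208a at 0 and miR-499 at 68018 CPM, against 8466 to 34685 in the other 5 libraries. In the mRNA library of that name the atrial natriuretic peptide gene NPPA was at 7.78 FPKM, against 3454 to 8496 in pacing and 1658 and 3226 in the other control libraries. There the light chain gene MYL2, a ventricular marker, was at 2331 FPKM, against 2.28 to 108 in pacing and 45.2 and 64.1 in the other control libraries. C2 held 1049 CPM of miR-206, a miRNA of skeletal muscle, against 2.85 to 33.8 in the other libraries. The erythroid miRNAs miR-451 and miR-486 summed to 681 to 3494 CPM in pacing and 2154 to 2829 in control, and miR-144 was not in the table. The leukocyte miRNAs summed to 50.6 to 311 CPM in pacing and 208 to 230 in control. The part of these differences in the let-7 results was not tested.

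let-7 took up a smaller share of all miRNA tags in the paced atria. The 6 members together made up 16.8%, 21.7% and 16.7% of the tags in P1, P2 and P3, against 25.3%, 28.6% and 25.0% in C1, C2 and C4. Every pacing library lay under every control library. The means were 18.4 ± 2.86% in pacing and 26.3 ± 2.01% in control (SD, n = 3 each), a difference of -0.52 on the log2 scale. The separation was present without C4 (-0.56), with C4 counted as pacing (-0.44) and without C2 and C4 together (-0.47). Counted as pacing, C4 (25.0%) lay just under C1 (25.3%). After TMM scaling, which sets libraries level on the bulk of the miRNAs, the family stood at 120549, 250977 and 166652 scaled CPM in P1, P2 and P3, against 245520, 326976 and 272301 in C1, C2 and C4. P2 then exceeded C1, and the groups overlapped, as they did after RLE scaling and in the normalized score of the authors. The log2 difference was not smaller on these scales (-0.71 with TMM, -0.62 with RLE and -0.64 in the score), but the pacing libraries spread more widely. Their SD was 28577 in CPM, 66141 after TMM and 104875 after RLE scaling. The exact permutation test gave p = 0.1 in CPM, 0.2 with TMM, 0.3 with RLE and 0.2 in the score.

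let-7f, the most abundant member by mean, carried much of that difference. Without it the other 5 members made up 9.65%, 13.0% and 9.60% of tags in P1, P2 and P3, against 15.1%, 11.9% and 11.4% in C1, C2 and C4, and the groups overlapped.

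**Figure D1:**
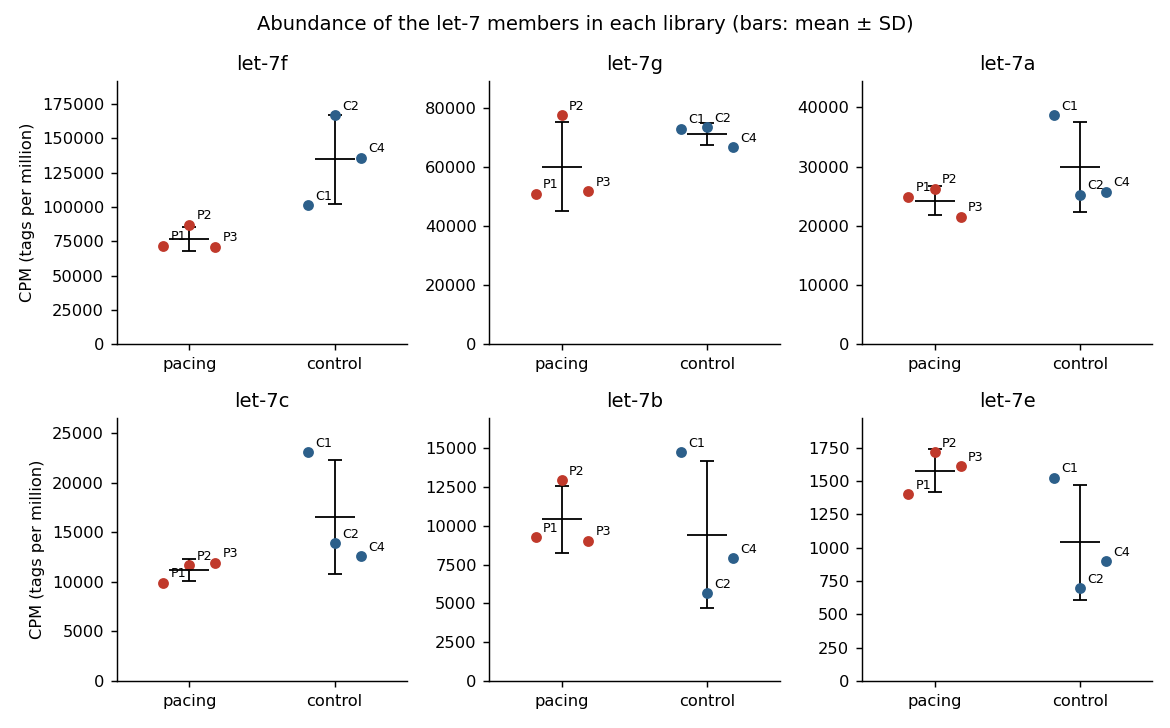
Abundance of each let-7 member in CPM (vertical axes, each starting at 0 with its own scale) in the pacing libraries P1 to P3 and the control libraries C1, C2 and C4. Points are libraries and bars are mean ± SD (n = 3 each). let-7f and let-7c do not overlap between the groups, while let-7e has its 2 lowest points in C2 and C4.

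By name, let-7f and let-7c were the members whose groups did not overlap in CPM, both lower in pacing. No member lay above the control group in every pacing library. Those are 2 of 6 members lower and 0 of 6 higher, against a background of 4.38% lower and 4.78% higher among the 251 miRNAs with 10 or more tags in all. All 6 members passed that minimum. let-7f overlapped between the groups with C4 counted as pacing, and also after TMM scaling, where P2 (100530 scaled CPM) exceeded C1 (98628). let-7c did not overlap in either case, though after TMM scaling P2 (13514 scaled CPM) lay just under C4 (13690). In the normalized score of the authors, let-7f and let-7c both overlapped between the groups.

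let-7f had 71901, 87018 and 71123 CPM in P1, P2 and P3, against 101469, 166771 and 135808 in C1, C2 and C4. It ranked between 4 and 7 among all miRNAs in the pacing libraries and 1 or 2 in the control libraries. The spread was wide in control (134683 ± 32666) and narrow in pacing (76681 ± 8961; SD, n = 3 each). In edgeR's quasi-likelihood test the log2 fold change was -0.97 with a standard error of 0.40 (95% interval -1.84 to -0.11). The unadjusted p was 0.0309 and the Benjamini-Hochberg adjusted p over 251 miRNAs was 0.408 (edgeR), so the difference did not pass. Over the 16 alternatives the adjusted p ran between 0.193 and 0.995 and the fold change stayed negative. Without C2 the edgeR log2 fold change was -0.59 and the unadjusted p 0.201. Without both C2 and C4 it was -0.20, a value against C1 as the only control library.

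let-7c lies beside a miR-99a gene in the dog gene table of RefSeq. It had 9919, 11698 and 11942 CPM in P1, P2 and P3, against 23087, 13863 and 12555 in C1, C2 and C4. C1 was far above the rest, and the gap between P3 and C4 was small. The edgeR log2 fold change was -0.68 (SE 0.42, 95% interval -1.59 to 0.23), with an adjusted p of 0.557.

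let-7a is encoded by a pair of genes that yield the same mature sequence. It had 24869, 26256 and 21498 CPM in P1, P2 and P3, against 38637, 25240 and 25728 in C1, C2 and C4. C1 was again the highest library, and the rest of the control group fell within the range of the pacing group. The edgeR log2 fold change was -0.44 (SE 0.38, adjusted p 0.711).

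let-7g, the second most abundant member, varied least over the 6 libraries (SD of 0.27 in log2 CPM). It had 51016, 77613 and 51910 CPM in P1, P2 and P3, against 73107, 73590 and 66828 in C1, C2 and C4. P2 was the highest of all 6 libraries and P1 and P3 were the lowest. The edgeR log2 fold change was -0.36 (SE 0.40, adjusted p 0.776).

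let-7b, whose gene neighbours a let-7a gene, overlapped between the groups. It had 9278, 12940 and 9050 CPM in P1, P2 and P3, against 14765, 5656 and 7911 in C1, C2 and C4. Both the highest and the lowest library were controls. The edgeR log2 fold change was 0.056 (SE 0.46, 95% interval -0.96 to 1.07, adjusted p 0.951), and its sign turned in 5 of 16 alternatives.

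let-7e, which lies beside the genes of miR-99b and miR-125a, was the least abundant member and the most variable (SD of 0.53). It had 1401, 1719 and 1611 CPM in P1, P2 and P3, against 1528, 697 and 900 in C1, C2 and C4. C2 and C4 lay under all pacing libraries and C1 lay within them. The edgeR log2 fold change was 0.49 (SE 0.48, 95% interval -0.55 to 1.54, adjusted p 0.737).

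Of the 6 members, none passed an adjusted p under 0.05 in edgeR, as was so for all 251 miRNAs (0%), and DESeq2 called 0 of the 6 and 4 of all miRNAs. At an unadjusted p of 0.05 or less let-7f alone was lower and no member was higher, against a background of 7.97% lower and 3.19% higher. The median log2 fold change was -0.40 over the members and -0.18 over all miRNAs under TMM. With scaling by the total of tags these medians were -0.27 and 0.06, so the scaling moved the median of all miRNAs by more than 0.1. Without P1, the medians under TMM were 0.05 over the members and -0.09 over all miRNAs. In that fit 3 members were negative and 3 positive, and let-7f stood at -0.52. The lower median of the members thus depended on P1. Relative to the median of all miRNAs under TMM, let-7f stood at -0.79, let-7c at -0.49 and let-7e at 0.68.

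**Figure D2:**
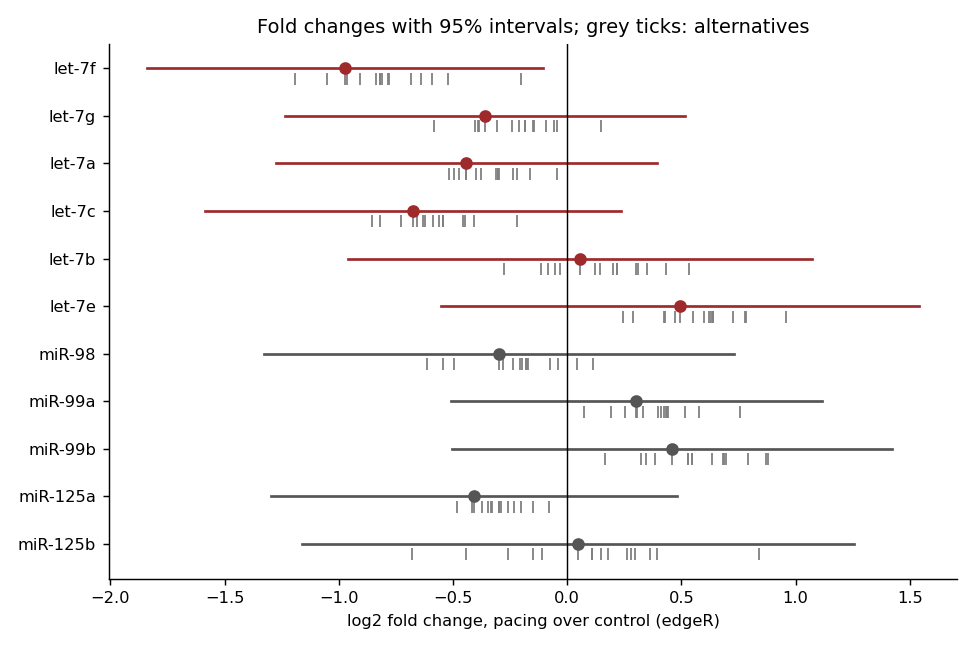
log2 fold change of pacing over control (horizontal axis, edgeR) for the let-7 members (red) and for miR-98 and the miR-99 and miR-125 families (grey). Points are estimates, lines are 95% intervals and grey ticks are the values under the alternatives. The interval of let-7f ends at -0.11, and those of all the others shown cross 0.

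Shares within the family do not depend on how libraries are scaled. let-7f and let-7g together held 69.1% to 84.1% of the let-7 tags in every library. The share of let-7f varied less among the pacing libraries than among the control libraries. let-7f made up 42.7%, 40.1% and 42.6% of the family in P1, P2 and P3, against 40.2%, 58.3% and 54.4% in C1, C2 and C4. C1 fell in with the pacing libraries (41.8 ± 1.49% in pacing and 51.0 ± 9.56% in control, exact permutation test p = 0.3, n = 3 each).

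Of the 6 shares, those of let-7g and let-7e did not overlap between the groups, and both were higher in pacing. let-7g made up 30.3%, 35.7% and 31.1% of the family in P1, P2 and P3, against 28.9%, 25.7% and 26.8% in C1, C2 and C4. In CPM its mean was 60180 in pacing and 71175 in control, with overlap. The ratios of let-7g to let-7a, let-7b, let-7c and let-7f also overlapped. let-7e made up 0.832%, 0.791% and 0.964% in P1, P2 and P3, against 0.605%, 0.244% and 0.360% in C1, C2 and C4. The exact permutation test (2-sided) gave p = 0.1 for each, the smallest that 3 libraries against 3 allow. With C4 counted as pacing, both shares overlapped, and no background over other miRNAs was computed for such shares. The 95% Wilson intervals of the shares reached at most 0.228 percentage points to either side, so counting error was below the spread between libraries. They cover counting error only, since reads without molecular identifiers are not independent molecules.

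**Figure D3:**
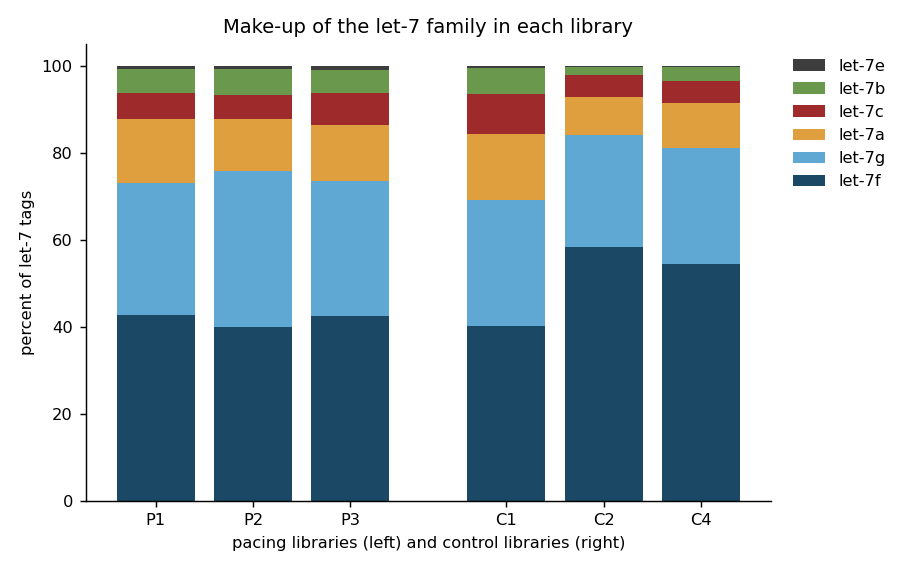
Percent of let-7 tags held by each member (vertical axis) in the pacing libraries P1 to P3 (left) and the control libraries C1, C2 and C4 (right). Bars add up to 100%. let-7f is near 40% in the pacing libraries and in C1, and above 54% in C2 and C4.

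The distance between whole mixes (Aitchison distance, computed on log ratios of the members) was 0.387 to 0.526 among the pacing libraries. C1 lay 0.794 to 0.957 from the pacing libraries, closer than it was to C2 (1.73) or C4 (1.17). C2 lay 1.86 to 1.94 and C4 1.21 to 1.33 from the pacing libraries, and they were 0.695 from each other. The mean distance between groups exceeded that within groups by 0.53, and by 1.08 without C1.

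In ratios of tags inside a library, let-7e was higher relative to each of the other 5 members in every pacing library than in every control library. Of 15 pairs of members, 6 had ratios that did not overlap between the groups, and let-7e was in 5 of those, which are all of its pairs. These 5 ratios share let-7e and are not independent of each other. Among the 89 other miRNAs with a mean of 100 or more tags, 13.5% were lower in every pacing library relative to let-7e, the 5 members included, and 0% were higher. Relative to let-7a, 11.2% of the 89 others were higher and 0% lower. The share over all pairs of miRNAs was not computed. The log2 ratio of let-7c to let-7e was 2.82, 2.77 and 2.89 in P1, P2 and P3, against 3.92, 4.31 and 3.80 in C1, C2 and C4. The difference of -1.18 was larger than the spread among pacing libraries (SD 0.062) and also larger than that among control libraries (SD 0.27). The log2 ratio of let-7a to let-7e was 4.15, 3.93 and 3.74 in P1, P2 and P3, against 4.66, 5.18 and 4.84 in C1, C2 and C4. With C4 counted as pacing, 1 of the 5 pairs of let-7e stayed apart, that with let-7c, and the other 4 overlapped. In that pair C4 (3.80) lay just under C1 (3.92) and well above P1, P2 and P3. By contrast, the log2 ratio of let-7a to let-7f overlapped, with -1.53, -1.73 and -1.73 in P1, P2 and P3, against -1.39, -2.72 and -2.40 in C1, C2 and C4.

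The pair that does not hold let-7e was let-7b and let-7c, which differ by 1 base. Its log2 ratio was -0.10, 0.15 and -0.40 in P1, P2 and P3, against -0.64, -1.29 and -0.67 in C1, C2 and C4, and it overlapped with C4 counted as pacing. With 25 ratios computed and 3 libraries a group, the exact permutation p could not go below 0.1 for any of them.

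The RefSeq table (assembly UU_Cfam_GSD_1.0, used for names and neighbours only) lists 9 let-7 genes, among them genes for all 6 members. It also lists let-7d and let-7j, which had no entry of that name in the count table. The family totals and shares therefore cover the 6 counted members only. let-7f neighbours let-7d, let-7b neighbours a let-7a gene, and let-7e neighbours miR-99b and miR-125a. let-7c and the other let-7a gene each neighbour a gene of miR-99a, while let-7g had no miRNA gene within 20 kb. miRNAs of such clusters can be cut from a shared transcript.

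The ratio of let-7c to miR-99a did not overlap between the groups, with C4 counted as control or as pacing. Counted as pacing, however, C4 lay just under C2 and far above P1, P2 and P3. There were 11.7, 11.7 and 12.2 let-7c tags per 100 tags of miR-99a in P1, P2 and P3, against 25.6, 22.1 and 21.9 in C1, C2 and C4. The means were 11.9 ± 0.28 in pacing and 23.2 ± 2.06 in control (SD, n = 3 each, exact permutation test p = 0.1). The log2 ratio differed by -0.96, and C1, C2 and C4 lay close together in it. miR-99a itself had 84761, 99715 and 97871 CPM in P1, P2 and P3, against 90218, 62687 and 57270 in C1, C2 and C4, with overlap (edgeR log2 fold change 0.30, adjusted p 0.777).

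**Figure D4:**
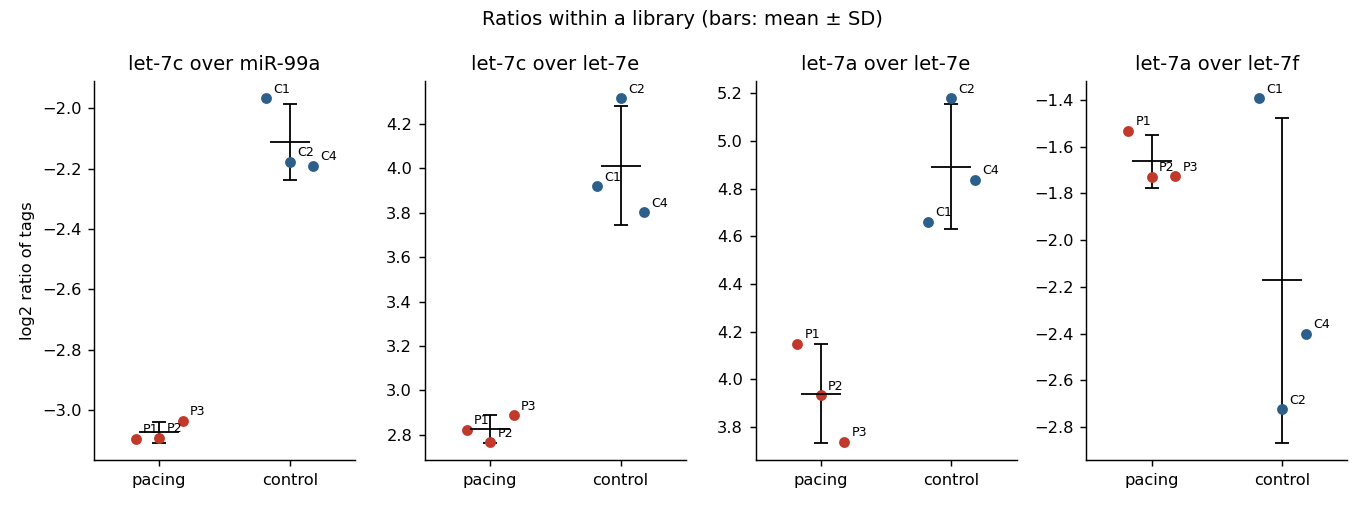
log2 ratio of tags within each library (vertical axes, each with its own range) for let-7c over miR-99a, let-7c over let-7e, let-7a over let-7e and let-7a over let-7f. Points are libraries and bars are mean ± SD (n = 3 each, pacing left and control right). The first 3 ratios do not overlap between the groups, and in the last C1 lies above the pacing libraries while C2 and C4 lie below them.

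Relative to miR-99a, 4 of 6 members (let-7a, let-7c, let-7f and let-7g) were lower in every pacing library, and none was higher, against 10.1% lower and 1.12% higher among the 89 other miRNAs with a mean of 100 or more tags, the members included. With C4 counted as pacing, 1 of 6 (let-7c) was lower in this way. The 4 share the denominator and are not independent of each other. The differences in log2 ratio were -0.73 for let-7a, -1.24 for let-7f and -0.72 for let-7g, while let-7b (-0.21) and let-7e (0.22) overlapped.

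let-7e was also compared with miR-125a, its neighbour. The log2 ratio of let-7e to miR-125a was -1.19, -0.54 and -0.84 in P1, P2 and P3, against -1.41, -2.15 and -1.70 in C1, C2 and C4. The difference was 0.90, and the groups did not overlap, though they did with C4 counted as pacing. Relative to its other neighbour, miR-99b, let-7e overlapped between the groups.

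A list of miR-98 and of the miR-99, miR-100 and miR-125 families, which lie beside let-7 genes in mammals, had 5 of its 6 miRNAs in the table, and none passed in edgeR. miR-125b is in that list but had no gene within 20 kb of a let-7 gene in the RefSeq table, and wider windows were not searched. miR-98 had 1355, 1394 and 1453 CPM in P1, P2 and P3, against 2415, 1256 and 1072 in C1, C2 and C4, with a log2 fold change of -0.30 (edgeR adjusted p 0.833). The log2 fold changes were 0.46 for miR-99b, -0.41 for miR-125a and 0.046 for miR-125b, and their edgeR adjusted p ran from 0.734 to 0.970.

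The miRNAs whose log2 CPM followed the summed family most closely over the 6 libraries, among 84 other miRNAs with a mean of 100 or more tags, were miR-7 (Pearson r = 0.65), miR-378 (r = 0.60) and one predicted miRNA. These are descriptions over 6 libraries that share their scaling, and miR-7 was highest in C2, with 1095 CPM against 38.0 to 379 CPM elsewhere.

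The mRNA table was read for the proteins that make, load or destroy let-7. Of 19 such genes, 17 were in the table and 15 had a mean of 1 FPKM or more (FPKM, an abundance scaled by transcript length and library size). LIN28A and LIN28B, the blockers of let-7 maturation, were listed at 0 in all 6 libraries. None of the 15 passed in limma at an adjusted p under 0.05 or at an unadjusted p of 0.05, against backgrounds of 0.0259% of 11583 genes adjusted, 2.52% higher unadjusted and 3.02% lower unadjusted. The log2 fold change was positive for 4 and negative for 11, with a median of -0.17, against -0.029 over all genes, of which 46.7% were positive. DICER1, the enzyme that cuts the precursor into the mature miRNA, had 15.50, 14.02 and 14.93 FPKM in P1, P2 and P3, against 19.47, 17.40 and 18.46 in C1, C2 and C4. The groups did not overlap, though they did with C4 counted as pacing, and the change was small (-0.30 on the log2 scale of FPKM + 1, SE 0.18, limma adjusted p 0.892). How many of all genes did not overlap in this way was not computed.

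The other maturation genes with the smallest p were AGO1, an Argonaute (log2 fold change 0.46, SE 0.24), XRN2, an exonuclease that degrades miRNAs in the worm (-0.35, SE 0.21) and AGO2, the Argonaute that cleaves its target (-0.41, SE 0.29). Their adjusted p in limma was 0.892 each. Without C4, 3 of the 15 were lower at an unadjusted p of 0.05 or less in limma and the median was -0.43. In that fit 12.7% of all genes were lower and their median was -0.16. With C4 counted as pacing, 5 of the 15 were lower in this way and the median was -0.41. There 14.2% of all genes were lower and their median was -0.22.

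Of 30 genes known as let-7 targets in mammals, 27 were matched by symbol and 21 were tested. None passed in limma at an adjusted p under 0.05, and 2 were higher and 2 lower at an unadjusted p of 0.05 or less, against 2.52% higher and 3.02% lower among all genes. With C4 counted as pacing, without P2 and without P3, 0 were higher and 2 lower in each case. Among all genes, 1.67% were higher and 14.2% lower with C4 counted as pacing. These shares were 1.35% and 1.22% without P2, and 1.3% and 0.985% without P3. In the main fit the log2 fold change of the targets was positive for 7 and negative for 14, with a median of -0.11. Without C4, 4 were positive and 17 negative (median -0.29), where 36.2% of all genes were positive (median -0.16). Without C2, 10 were positive and 10 negative (median -0.035), where 53.1% of all genes were positive (median 0.027). IGF2BP1, an mRNA-binding protein of fetal tissue, was listed at 0 in every library. Its relative IGF2BP2 had a log2 fold change of 0.14 (SE 0.35, limma adjusted p 0.961), and HMGA2 and IGF2BP3 were not analysed here.

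CCND1, the cyclin D1 gene, had 6.19, 10.4 and 10.8 FPKM in P1, P2 and P3, against 5.88, 4.64 and 2.76 in C1, C2 and C4. CDK6, the kinase that cyclin D1 activates, had 8.53, 7.52 and 9.16 FPKM in P1, P2 and P3, against 6.04, 5.47 and 3.22 in C1, C2 and C4. Both were higher in every pacing library than in every control library, with log2 fold changes of 0.91 (SE 0.33) and 0.70 (SE 0.27), and C4 was the lowest library for both. IRS2, which passes on the insulin and IGF1 signal, had 10.1, 7.68 and 4.55 FPKM in P1, P2 and P3, against 18.1, 19.8 and 23.0 in C1, C2 and C4. THBS1, the matrix protein thrombospondin, had 450, 307 and 287 FPKM in P1, P2 and P3, against 1136, 2199 and 557 in C1, C2 and C4. IRS2 and THBS1 were lower in every pacing library than in every control library, with log2 fold changes of -1.39 (SE 0.29) and -1.71 (SE 0.49). All 4 had an adjusted p of 0.879 in limma, so none of them passed. They were named for having the smallest p among the tested targets, and the lack of overlap follows in part from that choice. The share of all genes whose groups do not overlap was not computed. With C4 counted as pacing, CCND1, CDK6 and IRS2 overlapped between the groups and THBS1 did not.

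**Figure D5:**
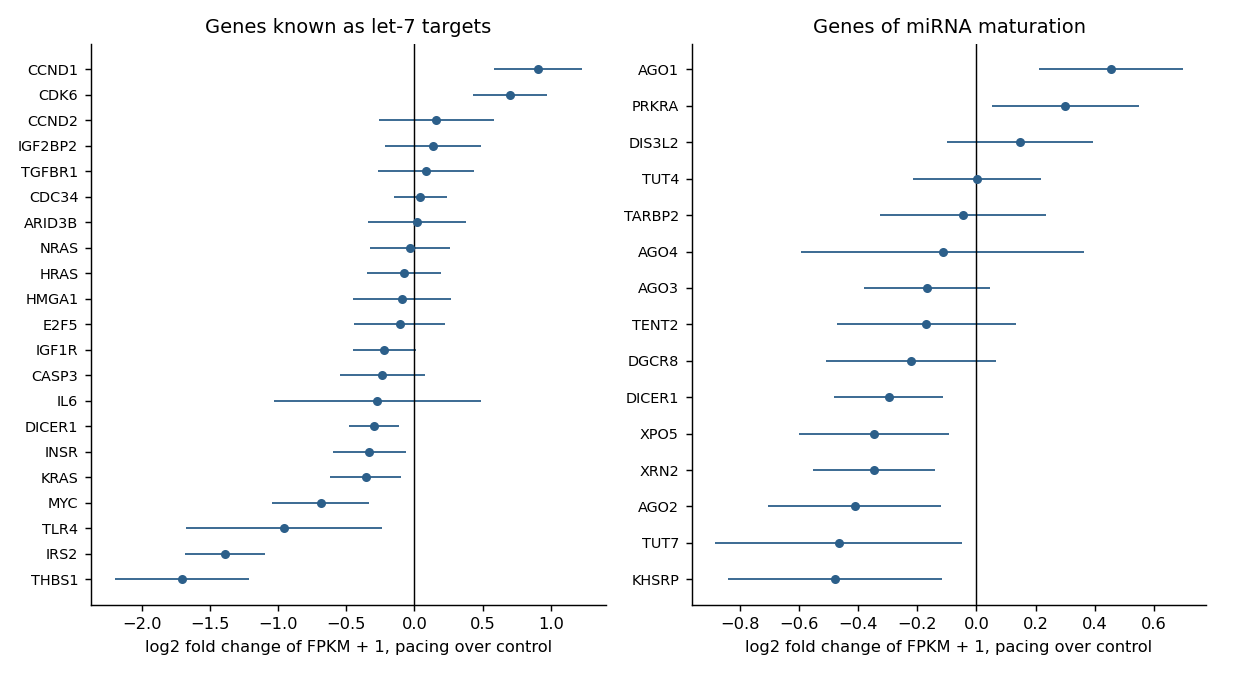
log2 fold change of FPKM + 1, pacing over control (horizontal axes), for the 21 tested genes known as let-7 targets (left) and the 15 tested genes of miRNA maturation (right), ordered by value. Points are estimates and lines are 1 standard error. Among the targets CCND1 and CDK6 stand at the positive end and IRS2 and THBS1 at the negative end.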

How the data were processed

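Small RNA and total RNA libraries of 3 paced and 3 control dogs were analysed from the deposited tables. The authors deposited raw tag counts for each mature miRNA, a normalized score and, for genes, FPKM values. Their processing notes name cutadapt 1.9.3, Bowtie2, HISAT2, Cufflinks and Cuffdiff. The paper gives Bowtie2 for its circRNA reads. The small RNA aligner is not given in the sources used here. let-7a was listed under each of its precursors with equal counts and entered once, and blank cells were read as 0. Columns were grouped by name, C4 as control. The table that gives circRNA reads was not used, and 30 columns of values per sample were left out in all. The score of the authors entered an alternative only.

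A 2-sided quasi-likelihood test in edgeR 4.0.16 with TMM scaling and Benjamini-Hochberg adjustment was run on the 251 of 350 miRNAs that summed to 10 or more tags. For genes whose FPKM averaged 1 or more, log2(FPKM + 1) was fitted in limma 3.58.1 with an intensity trend, where the fold change of low genes is understated. The depth behind the FPKM values is unknown. Single values were compared by exact permutation (smallest p 0.1). DESeq2 1.42.0, other scalings, filters, pseudocounts and leaving out each library were tried. Named genes were all members, the listed miR-98, miR-99 and miR-125 families and, of each mRNA list, the 4 with the smallest p and a few regulators. DICER1 is in both mRNA lists. The members and lists were chosen with earlier results of these data known. The code was tested on simulated data. The labels do not name the animal behind each library, and p-values measure the spread between these libraries.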

Additional observations from a re-analysis of the deposited data

How the results depend on the processing

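None of the 6 members and none of the 5 listed miRNAs of the miR-98, miR-99 and miR-125 families passed an adjusted p under 0.05 in any of the 16 alternatives, nor did any listed mRNA in 9. let-7a, let-7c, let-7e, let-7f, miR-99a, miR-99b and miR-125a kept their sign in all 16, though some came near 0. Without P1, let-7a was at -0.043 and miR-125a at -0.082, and miR-99a was at 0.075 with C4 counted as pacing. The log2 fold change of let-7b was negative with C4 counted as pacing (-0.086), without C2 (-0.055), without C4 (-0.030) and without both (-0.28), and ran from -0.11 to 0.53 as single libraries were left out. With single libraries left out, let-7g ran from -0.58 to 0.15 (positive without P1) and miR-98 from -0.50 to 0.11 (0.043 without C1, 0.11 without P1). miR-125b was at -0.44 with C4 counted as pacing, at -0.68 without C2 and C4, at -0.15 without P3, at -0.11 without C2, and from -0.26 to 0.84 with single libraries left out. The log2 difference of the family's share was -0.71 after TMM scaling, -0.67 per tags outside the family, -0.44 with C4 counted as pacing, and from -0.64 to -0.46 with single libraries left out. The excess of between-group over within-group distance of the mix ran from 0.33 to 1.08, the highest without C1, and was 0.29 with C4 counted as pacing. At an unadjusted p of 0.05 or less, 8 miRNAs were higher and 20 lower under TMM, against 10 and 12 with scaling by the total. Leaving out C2 and C4 together, TMM over the miRNAs outside the family, RLE scaling of the share, and ratios and mRNA levels with C4 counted as pacing were chosen after seeing the data. The causes of these shifts were not tested. No paired analysis was made, because the paced and the control libraries came from different dogs and no pairing was stated. With 3 libraries a group, differences within the spread of the control libraries were not detectable.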
